A study of Mus musculus with 8 samples.

Results

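A set of 40 genes of the cell division cycle was followed in NIH3T3, a mouse embryonic fibroblast line that grows indefinitely in culture, after the cells had been starved of serum and then given it back. The genes were chosen by name, from G1 cyclins to mitotic kinases, and all 40 were on the array, as 55 probes that bear these gene names. Of these genes, 37 were bright enough to be tested, against 13421 genes with a RefSeq mRNA accession tested in all. Every group was kept on 15 cm plates in 0.5% newborn bovine serum for 24 h. One group (cordycepin plus serum, 3 arrays) received 20 µM cordycepin dissolved in DMSO for 90 min, with serum present for the last 30 min. The serum group (3 arrays) received 0.1% DMSO in place of cordycepin and the same 30 min of serum, and the no serum group (2 arrays), a DMSO control per the labels, stayed starved. The added serum was newborn bovine serum, at 0.1 volume. No array held growing cells or cells given cordycepin without serum. The arrest itself therefore had no reference here, and cordycepin could be compared only in the presence of serum.

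Cyclins are regulatory subunits that switch on cyclin-dependent kinases (Cdks). D-type and E-type cyclins act in G1, cyclin A2 in S phase and after it, and the B-type cyclins at the entry into mitosis. The retinoblastoma family of pocket proteins holds E2F transcription factors in check until G1 Cdks phosphorylate them, after which E2F drives the genes for DNA replication. In quiescent cells many of these genes are held down, and the return to the cycle after serum takes many hours, so that 30 min falls in the immediate early phase. Cordycepin is 3′-deoxyadenosine, a nucleoside that ends an RNA chain when built into it.

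Values are log2 signals from which the 75th percentile of each array was subtracted. They can be compared between arrays for a given probe but not between genes. A gene is given by its brightest probe. A call, higher or lower, needs an adjusted p under 0.05 in limma and a log2 change of at least 1 in size, and "past adjusted p" means the first condition alone. On each array 51.1 to 57.1% of all probes were well above background. All 37 tested members were so on all 8 arrays, and 24 of them were brighter than the median gene. *Ccne2*, *Cdkn1c* and *Aurkb*, encoding cyclin E2, the Cdk inhibitor p57 and Aurora kinase B, were not well above background on any array and were not tested. All 10 fibroblast markers were above background on all arrays. Of the epithelial markers *Cdh1*, *Krt5* and *Krt18* were so on 0 arrays, *Epcam* on 1 and *Krt8* on 7. Of the endothelial markers *Cdh5* was so on 0 arrays, but *Pecam1*, *Kdr* and *Tek* on all 8. As a check of the response to serum, all 5 immediate early genes examined were called higher in the serum group than in the no serum group.

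After 30 min of serum no cell cycle gene passed the test. None of the 37 members was called or past adjusted p in limma, and 1 had an unadjusted p under 0.05. Over all genes 0.909% were called higher, 0.0447% lower, and 1.39% were past adjusted p, and a count of 0 among 37 members is near these shares. The changes ran from -0.39 to 0.34 with a median of -0.09, beside a median of 0 over all genes. For all 37 members the 95% interval of the change lay between -1 and 1. Among the members 27 changes were below 0 and 10 above, beside 6777 of 13421 below 0 over all genes. Of the tested mitosis members 7 of 7 were below 0, with a median of -0.17 and none past the threshold. In a list of other mitosis genes 22 of 23 were below 0, with a median of -0.19. Mitosis genes varied together between arrays, as described below, so their signs are not independent. In bulk RNA, fewer cells of a phase and less RNA per cell cannot be told apart.

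The member with an unadjusted p under 0.05 was *Ccnd3*, which encodes cyclin D3, a G1 partner of Cdk4 and Cdk6. Its log2 signal was 5.97 and 6.14 in the no serum arrays, 6.34, 6.52 and 6.34 in the serum arrays, and 6.52, 6.17 and 6.28 in the cordycepin arrays. The serum arrays all lay above the no serum arrays, by 0.34 ± 0.14 (SE, adjusted p = 0.454). The file places this probe on chromosome 4 and the gene lies on chromosome 17, and whether it also reads another transcript was not tested. Of the 55 probes 6 are placed off the chromosome of their gene. A second probe, placed on chromosome 17 at chr17:47736267-47736326 of build mm9, gave a serum change of 0.45 ± 0.13 (SE, adjusted p = 0.164). Cordycepin plus serum differed from serum by -0.08 and -0.21 on these probes (adjusted p = 0.73 and 0.259).

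**Figure D1:**
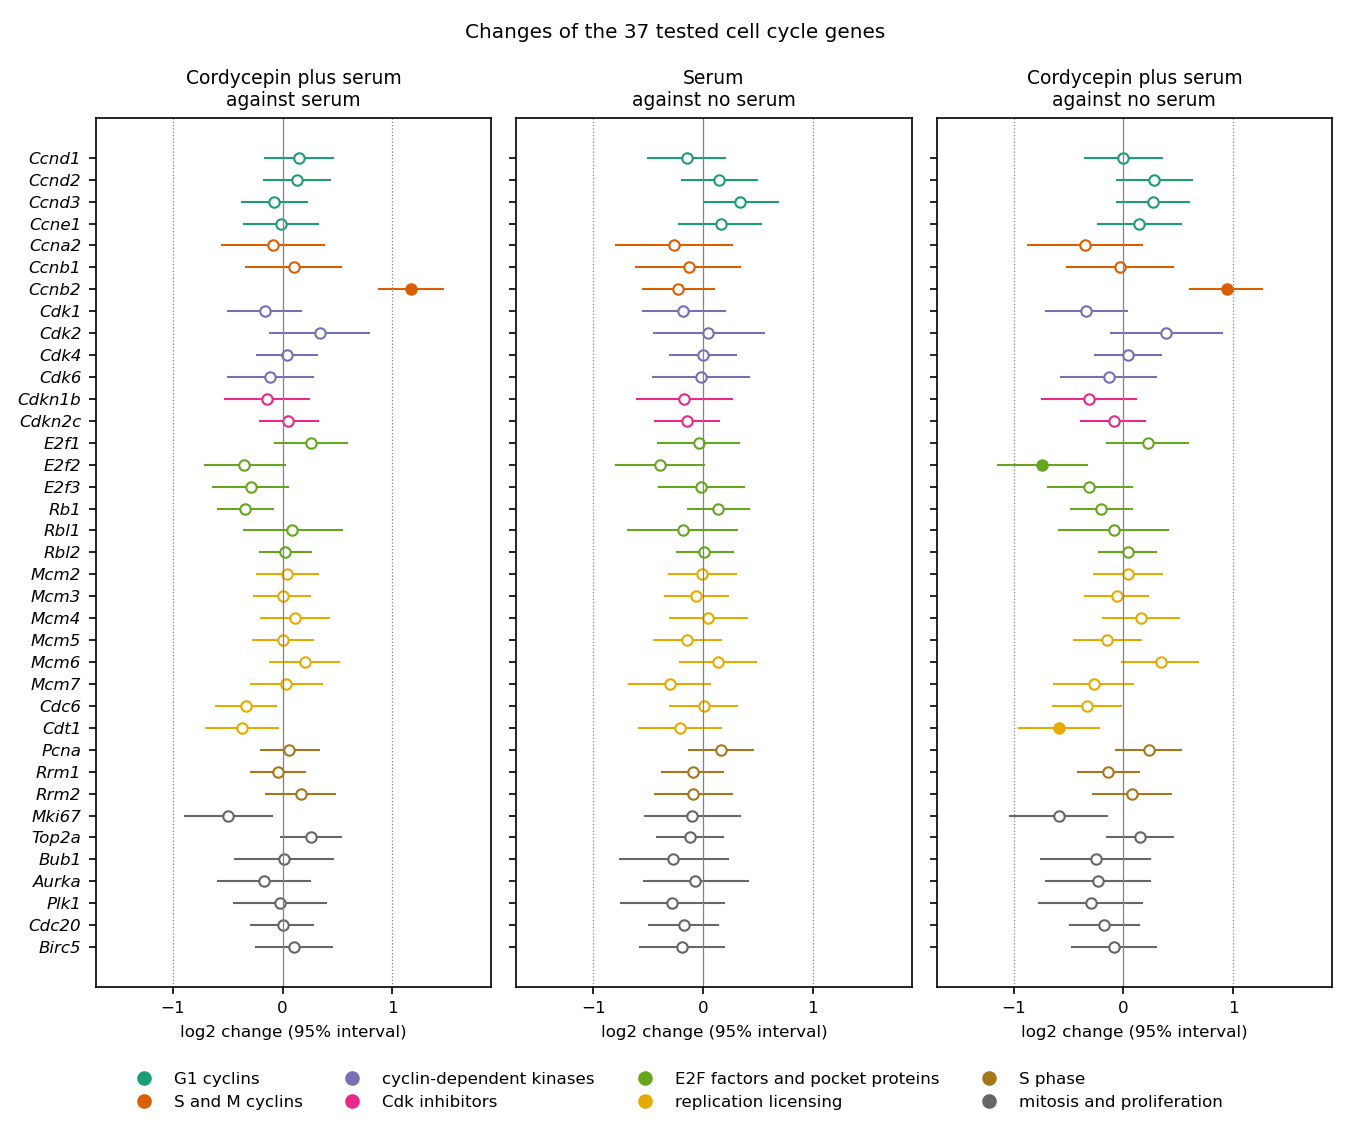
Log2 change of each of the 37 tested members in the 3 comparisons, with 95% intervals from limma. Colours mark the role of the gene, filled points are past adjusted p and open points are not; dotted lines mark a change of 1 in size. The middle panel has no filled point, and the left panel has 1, *Ccnb2* at 1.17.

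What cordycepin does to these genes in serum-treated cells was asked next. On the brightest probes a single member passed the test, *Ccnb2*, which encodes cyclin B2, a mitotic partner of Cdk1. It was called higher and no member was called lower, and 5 members had an unadjusted p under 0.05. Over all genes 3.63% were called higher, 2.59% lower and 14.4% were past adjusted p. The members gave 1 of 37 called higher, 0 called lower and 1 past adjusted p. Genes brighter than the median, to which 24 of the members belong, were past adjusted p in 8.82% of cases. The median change of the members was 0.01, beside 0.06 over all genes. Changes of under 0.5 in size were found for 36 of 37 members, against 84.2% of all genes and 92.1% of the brighter genes. The 95% interval lay between -1 and 1 for 36 of 37 members, all but *Ccnb2*.

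The log2 signal of *Ccnb2* was 1.73, 1.74 and 1.70 in the cordycepin arrays, 0.55, 0.35 and 0.77 in the serum arrays, and 0.76 and 0.81 without serum. All 3 cordycepin arrays lay above the other 5, which overlapped among themselves. Cordycepin plus serum exceeded serum by 1.17 ± 0.13 (SE, adjusted p = 0.000358), a 2.24-fold difference with a 95% interval of 1.83 to 2.74. Against no serum the difference was 0.94 ± 0.14 (SE, adjusted p = 0.00289), past adjusted p but just under the minimum change for a call. Among the 7099 genes at least as bright as *Ccnb2*, 0.211% were called higher with cordycepin, and 5 of them, *Ccnb2* included, rose as much. When arrays were centred on spike-in RNAs instead, the change was 1.09 with an adjusted p of 0.29. The probe lies at chr9:70255671-70255730 of mm9 on the minus strand, and its first 30 of 60 bases are shown because this probe alone carries the result.
Ccnb2 probe: cctaggcactggactccgatcctgcgcttc

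Its close relative *Ccnb1*, encoding cyclin B1, gave no call. The log2 signal was 0.75, 0.71 and 1.30 in the cordycepin arrays, 0.60, 0.89 and 0.97 in the serum arrays, and 0.85 and 1.05 without serum. These ranges overlap in all 3 groups, and cordycepin plus serum differed from serum by 0.10 ± 0.19 (SE, adjusted p = 0.746). Of its other probes, both placed on chromosome 7 while the gene lies on chromosome 13, 1 differed by 0.13 and the other by -0.03. *Ccnb1* was set beside *Ccnb2* after the values were seen. The difference between their log2 signals within an array was 0.98, 1.03 and 0.40 with cordycepin and -0.04, -0.54 and -0.20 with serum alone. The means of these values differed by 1.06 between the groups, which is a description and was not tested. *Ccna2*, encoding cyclin A2, differed by -0.09 (adjusted p = 0.809).

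The promoters of both B-type cyclin genes are shown because *Ccnb2* was called with cordycepin and *Ccnb1* was not. The stretches run from 150 bases before to 20 after the start given by RefSeq for build GRCm38.p6, at chr9:70421535-70421704 for *Ccnb2* and chr13:100786467-100786636 for *Ccnb1*, both on the minus strand and written in the direction of the gene. Capitals mark the CCAAT box, bound by NF-Y, and the CHR, searched for as TTTGAA or TTCGAA alone, on either strand. The CHR is the site through which the DREAM and MuvB complexes act on mitotic genes.
Ccnb2 promoter: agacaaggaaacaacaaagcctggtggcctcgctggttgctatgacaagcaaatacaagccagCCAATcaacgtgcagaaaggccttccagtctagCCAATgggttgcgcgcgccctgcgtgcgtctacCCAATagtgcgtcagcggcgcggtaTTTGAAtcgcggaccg
Ccnb1 promoter: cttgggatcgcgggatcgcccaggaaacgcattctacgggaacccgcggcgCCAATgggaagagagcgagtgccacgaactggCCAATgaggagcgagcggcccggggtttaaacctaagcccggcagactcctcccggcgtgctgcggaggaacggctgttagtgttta
The *Ccnb2* stretch holds 3 CCAAT boxes, the first bases of which lie at -87, -54 and -21, and the letters TTTGAA from base 5 after the start. The *Ccnb1* stretch holds 2 CCAAT boxes, at -99 and -67, and neither TTTGAA nor TTCGAA. Other forms of the CHR were not searched for, so a CHR in *Ccnb1* is not excluded. Whether these letters bear on the calls was not tested.

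No G1 cyclin, Cdk or Cdk inhibitor passed the test with cordycepin. The 4 tested G1 cyclins differed between the cordycepin and serum groups by -0.08 to 0.15, the 4 Cdks by -0.16 to 0.34 and the 2 tested inhibitors by -0.14 to 0.05, none past adjusted p. *Cdk4* encodes a kinase of the D-type cyclins. Its log2 signal was 6.63, 6.61 and 6.51 with cordycepin, 6.51, 6.62 and 6.50 with serum, and 6.40 and 6.69 without serum. The difference of 0.04 had a 95% interval of -0.23 to 0.31, and the other 2 probes of *Cdk4* gave 0.04 and 0.09. *Cdkn1b*, encoding the inhibitor p27 that accumulates in quiescent cells, had log2 signals of 2.61, 3.16 and 3.14 with cordycepin, 3.04, 3.07 and 3.22 with serum, and 3.38 and 3.19 without. The first cordycepin array was the lowest of the 8 and the other arrays overlapped, for a difference between cordycepin plus serum and serum of -0.14 with a 95% interval of -0.52 to 0.24.

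*Cdk1*, the kinase of mitotic entry, had 3 probes, of which 1 was tested, with a difference between cordycepin plus serum and serum of -0.16 ± 0.14 (SE, adjusted p = 0.483). That probe was above background on all 8 arrays. A second, which shares 41 of its 60 bases with the first, was so on 0 arrays, and the third on 3. The overlapping probes are shown because 1 of them was measured and the other was not. Both lie on chromosome 10 on the minus strand, at chr10:68801072-68801131 and chr10:68801053-68801112 of mm9. The 30 bases shown of each hold 11 of the shared bases in capitals, at the start of the shared stretch for the first probe and at its end for the second.
Cdk1 probe above background: ttcttaatttcctacgtatAACTTAATTAA
Cdk1 probe not above background: ATGAATTTAAAtataattctgtatatgtgc

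On the brightest probes of the E2F factors and pocket proteins the difference between the cordycepin and serum groups ran from -0.35 to 0.26, with 0 of 6 past adjusted p. A second probe of *Rbl1* gave 0.68 ± 0.27 (SE, adjusted p = 0.132), beside 0.09 on its brightest. For *E2f3* a second probe gave 0.14, beside -0.29 on its brightest. *E2f2*, encoding one of the activating E2F factors, was past adjusted p only against the no serum group. Its log2 signal was -2.14, -1.76 and -1.82 with cordycepin, -1.38, -1.83 and -1.49 with serum, and -1.15 and -1.20 without serum. The cordycepin arrays lay below both arrays without serum and overlapped the serum arrays. The difference was -0.74 ± 0.18 (SE, adjusted p = 0.0247) against no serum, -0.35 ± 0.16 (SE, adjusted p = 0.177) against serum, and serum itself differed from no serum by -0.39 ± 0.18 (SE, adjusted p = 0.515). Without cordycepin replicate 1, no serum replicate 1 or no serum replicate 2 the difference from no serum was -0.62, -0.71 and -0.76, and no longer past adjusted p (0.0656, 0.13 and 0.107). *Rb1*, encoding the retinoblastoma protein, differed between cordycepin plus serum and serum by -0.34 ± 0.11 (SE, adjusted p = 0.0668).

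By their brightest probes 1 of 8 replication licensing genes was past adjusted p, *Cdt1*, in 1 of the 3 comparisons, and *Cdc6* passed on its other probe alone. The Mcm genes encode the subunits of the replicative helicase, which Cdc6 and Cdt1 load onto origins. *Mcm2* to *Mcm7* differed between the cordycepin and serum groups by 0 to 0.20, none past adjusted p. The only probe of *Mcm7* is placed on chromosome 16, off the chromosome of its gene. *Cdt1* had log2 signals of 2.50, 2.81 and 2.77 with cordycepin, 3.1, 3.13 and 2.96 with serum, and 3.09 and 3.47 without serum. All 3 cordycepin arrays lay below the other 5. Against no serum *Cdt1* was lower by -0.59 ± 0.16 (SE, adjusted p = 0.0447), and against serum the difference was -0.37 ± 0.14 (SE, adjusted p = 0.119). The adjusted p against no serum lay close to the threshold and passed it in 4 of 16 alternative analyses, with a range of 0.0226 to 0.63.

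*Cdc6* had probes that moved in opposite directions. On the probe that was brighter over the 8 arrays, at chr11:98782986-98783045 of mm9 on the plus strand, the log2 signal was -2.77, -2.53 and -2.55 with cordycepin. It was -2.22, -2.39 and -2.24 with serum, and -2.38 and -2.19 without serum. On the other probe, which starts 2183 bases further along the same strand at chr11:98785169-98785228, it was -1.80, -2.19 and -1.59 with cordycepin. With serum it was -2.46, -3.17 and -2.99, and without serum -3.06 and -2.58. The cordycepin arrays thus lay below the serum arrays on the first probe and above them on the second, with no overlap on either.
Cdc6 brighter probe: tgtaaagaactttgaagtttagaaggatga
Cdc6 other probe: ttaagaaccagattaagtttccatagtgtc
The first 30 bases of each are shown because the direction depends on which is read. Against serum the brighter probe gave -0.33 ± 0.12 (SE, adjusted p = 0.0948), and the other gave 1.01 ± 0.24 (SE, adjusted p = 0.0186), which would be a call. Against no serum they gave -0.33 ± 0.13 (SE, adjusted p = 0.16) and 0.96 ± 0.26 (SE, adjusted p = 0.046). The order of brightness was not the same in every group. The mean was -2.62 on the brighter probe and -1.86 on the other with cordycepin, and -2.28 and -2.87 with serum. Under the 16 alternative analyses the second probe was past adjusted p against serum in 9, with changes of 0.62 to 1.22. Which part of the gene each probe reads was not determined, as no gene model of build mm9 was used. Of the 10 members with several tested probes, 5 had probes of 1 sign in the comparison of cordycepin plus serum against serum. The widest gap was that of *Cdc6*, at 1.35, followed by *Rbl1* at 0.58, and 7 of the 10 had gaps under 0.3.

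**Figure D2:**
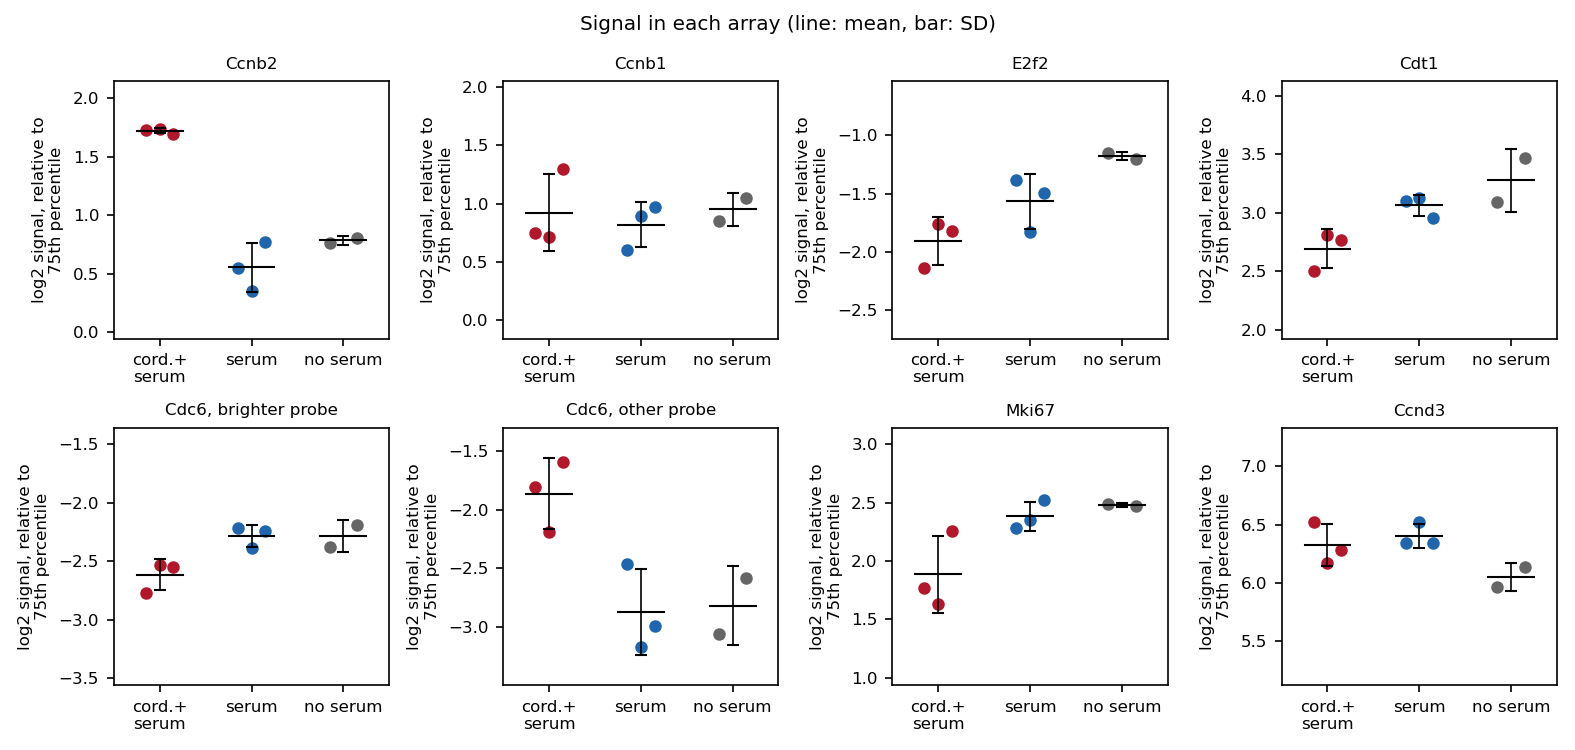
Log2 signal relative to the 75th percentile in each of the 8 arrays for *Ccnb2*, *Ccnb1*, *E2f2*, *Cdt1*, both *Cdc6* probes, *Mki67* and *Ccnd3*. Points are arrays, the horizontal line is the group mean and the bar is the SD (n = 3, 3 and 2); each panel spans the same range. The 3 cordycepin points of *Ccnb2* sit at 1.70 to 1.74, above all others.

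No gene of DNA synthesis passed the test. *Pcna*, encoding the sliding clamp of DNA polymerase, had log2 signals of 5.13, 5.15 and 4.99 with cordycepin, 5.13, 4.98 and 4.98 with serum, and 4.75 and 4.98 without serum. The groups overlapped, and the difference of 0.06 had a 95% interval of -0.20 to 0.33. Its only probe is placed on chromosome 19, off the chromosome of the gene. *Rrm1* and *Rrm2*, encoding the subunits of ribonucleotide reductase, differed by -0.04 and 0.17. The only probe of *Rrm2* is likewise placed on chromosome 19, off the chromosome of its gene.

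The mitosis and proliferation genes comprise kinases (*Bub1*, *Aurka*, *Plk1*), the activator of the anaphase-promoting complex *Cdc20*, survivin (*Birc5*), topoisomerase II alpha (*Top2a*) and the proliferation antigen Ki-67 (*Mki67*). None of the 7 tested was past adjusted p with cordycepin, and their median difference from serum was 0. *Birc5*, the brightest, had log2 signals of 3.37, 3.16 and 3.57 with cordycepin, 3.12, 3.22 and 3.44 with serum, and 3.34 and 3.56 without, which overlap. *Mki67*, picked out after its values were seen, was the lowest at -0.50 ± 0.17 (SE, adjusted p = 0.0832), from 1.77, 1.63 and 2.26 with cordycepin and 2.28, 2.35 and 2.52 with serum. Those ranges did not overlap, by a margin of 0.02. A second probe of *Mki67* gave -0.36 ± 0.15 (SE, adjusted p = 0.143). On the first probe the no serum arrays were at 2.49 and 2.47, and cordycepin plus serum differed from them by -0.59 ± 0.19 (SE, adjusted p = 0.0796). Without cordycepin replicate 3 the difference from serum was -0.68 and past adjusted p, at 0.0118.

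That array stood apart for the whole group. In cordycepin replicate 3 all 7 mitosis members had the highest value of the 3 cordycepin arrays, on average 0.28 above the group mean on the log2 scale, while the other cordycepin arrays lay 0.11 and 0.17 below it. Serum replicate 3 was likewise the highest serum array for 7 of 7, by 0.15 on average. Among 23 other mitosis genes, from a list that shares no gene with the members, 21 were highest in cordycepin replicate 3 and 21 in serum replicate 3. Over all genes 25.3% were highest in the first and 30.3% in the second of these arrays, and over the brighter genes 16.1% and 24.3%. The licensing genes did not share this, with 2 of 8 highest in cordycepin replicate 3 and 0 of 8 in serum replicate 3, nor did the 4 G1 cyclins, with 0 in both. The S and M cyclins shared it in part, with 2 of 3 and 3 of 3. Over all 37 members the shares were 43.2% and 45.9%. The differences between the cordycepin and serum groups among the mitosis members ran from -0.50 to 0.26, a size like that of this spread between arrays. Their SEs were 0.12 to 0.19. The spread is taken about the mean of each group, so it is not itself a difference between groups. *Ccnb2* was lowest in cordycepin replicate 3 and highest in serum replicate 3. The pattern was noticed in these data and its source was not tested. Both arrays lay on the second row of the slide, as did serum replicate 2 and no serum replicate 2, in which the mitosis members averaged -0.05 and 0.06. The arrays also share a replicate number. In replicates 1 and 2 the mitosis members averaged -0.11 and -0.17 with cordycepin, and -0.1 and -0.05 with serum. Row and replicate number overlap only in part here, as serum replicate 2 shares the row of serum replicate 3 but not its number. Neither was tested as a source.

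**Figure D3:**
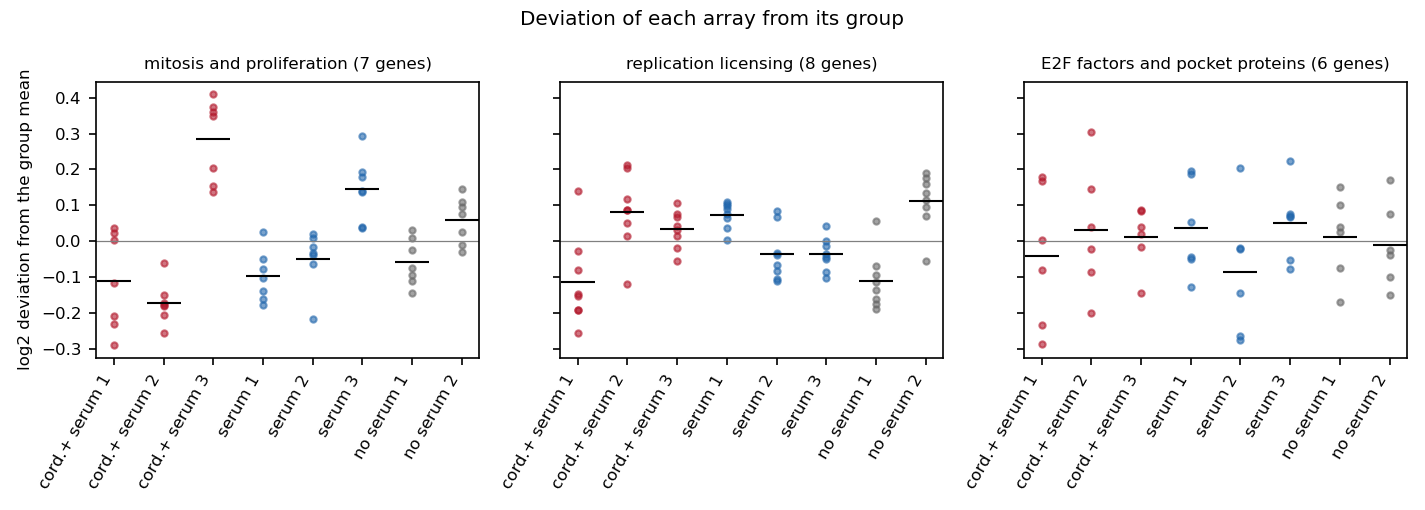
Log2 deviation of each gene from its group mean, by array, for the mitosis, licensing and E2F and pocket protein members. Points are genes, the black dash is their mean. For mitosis genes cordycepin replicate 3 averages 0.28 and serum replicate 3 averages 0.15, while the licensing genes average 0.03 and -0.04 in the same arrays.

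The role groups also differed in the letters of their promoters, which the choice of members did not use. RefSeq windows of 250 bases before to 50 after the start were held for 32 members (not for *Ccnd1*, *Ccnd2*, *Ccne2*, *Ccna2*, *Cdkn1c*, *Rb1*, *Mcm4* and *Aurkb*). An E2F motif (TTTCCCGC, TTTCGCGC, TTTGCCGC or TTTGGCGC, on either strand) occurred in 6 of 7 licensing genes and in 0 of 7 mitosis genes, against 2.6% of 27025 genes. A CHR, searched for only as TTTGAA or TTCGAA on either strand, occurred in 2 of 7 licensing genes and in 6 of 7 mitosis genes. The share over all genes was 21.7%. The CCAAT box was found in 5 of 7 and 6 of 7, against 41.1%. In the other roles an E2F motif occurred in 0 of 3 genes of DNA synthesis (*Pcna*, *Rrm1* and *Rrm2*), 2 of 4 Cdks and 3 of 5 E2F factors and pocket proteins. The G1 cyclins, the S and M cyclins and the Cdk inhibitors held it in 0 of 2 each. A CHR occurred in 0 of 3 genes of DNA synthesis, 1 of 4 Cdks and 3 of 5 E2F factors and pocket proteins. *Birc5* was the mitosis gene with none of the 3 motifs in this window. *E2f2* held all 3 motifs, *Cdt1* and *Cdc6* only an E2F motif, and *Ccnb2* a CHR and CCAAT boxes. In the 37 windows of these members an E2F motif shared letters with a CCAAT box in 1, and with a CHR in 0. A match is a description of the sequence, not of binding.

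**Figure D4:**
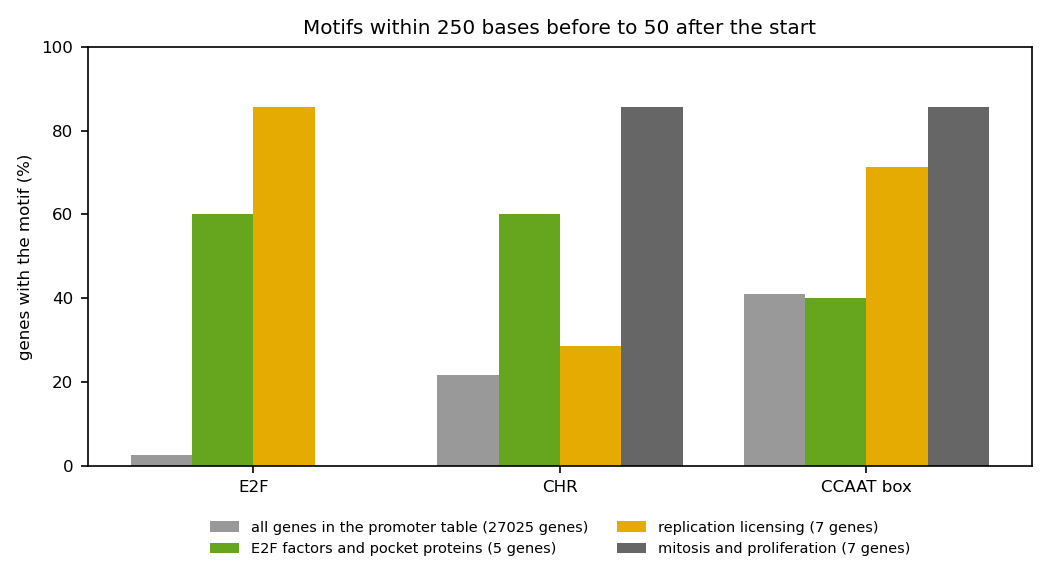
Share of genes with an E2F, CHR or CCAAT motif within 250 bases before to 50 after the RefSeq start, in percent, for all 27025 genes and for 3 role groups of 5, 7 and 7 genes. The E2F bar is at 85.7% for the licensing genes and 0 for the mitosis genes, and the CHR bars are at 28.6% and 85.7%.

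Between the starved state and cordycepin plus serum, 3 members were past adjusted p on their brightest probes and 0 were called. They were *Ccnb2* above, and *E2f2* and *Cdt1* below, the no serum group, with the values given above. Over all genes 3.59% were called higher, 2.06% lower and 11% were past adjusted p, and of the brighter genes 5.37% were past it. The median change of the members was -0.09, beside 0.05 over all genes, and 33 of 37 changes were under 0.5 in size. This comparison and the cordycepin against serum comparison share the cordycepin arrays.

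Other cell cycle genes, taken from lists of replication, mitosis and G1 control genes that leave out the members, were tested as 68 further genes. With cordycepin plus serum against serum, 1 was called higher and 2 lower, and 10 were past adjusted p, with a median of 0.01. The 10 of 68 are near the 14.4% past adjusted p over all genes. In the list of G1 control genes 6 of 22 were past adjusted p, all 6 lower, with a median of -0.30. In the list of other replication genes it was 3 of 23, near the share over all genes, and in the list of other mitosis genes 1 of 23. *E2f8*, encoding an E2F factor that represses transcription, was called lower. Its log2 signal was -1.66, -1.54 and -1.25 with cordycepin, -0.10, -0.35 and -0.24 with serum, and -0.60 and -0.65 without serum. The difference was -1.25 ± 0.13 (SE, adjusted p = 0.000354), with no overlap. Its relative *E2f7* was past adjusted p at -0.75 ± 0.13 (SE, adjusted p = 0.00508), as was *Wee1*, the kinase that restrains Cdk1, at -0.87 ± 0.13 (SE, adjusted p = 0.00204).

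*Ccnf*, encoding cyclin F, a subunit of a ubiquitin ligase, had the lowest change of these genes. Its log2 signal was -1.43, -0.85 and -0.68 with cordycepin, 0.93, 0.68 and 1.01 with serum, and 0.79 and 0.98 without serum. The difference from serum was -1.87 ± 0.20 (SE, adjusted p = 0.000354), and serum itself differed from no serum by -0.01. The gene called higher was *Chek1*, encoding the checkpoint kinase Chk1, with log2 signals of -3.25, -3.65 and -3.24 with cordycepin, -5.28, -4.26 and -4.32 with serum, and -4.99 and -5.32 without. Its probe was well above background on all 3 cordycepin arrays but on 2 of 3 serum arrays and 1 of 2 without serum. It thus entered the test through the group where it was high, and its call supports nothing further. Against no serum the same gene was called higher, *Ccnf* was called lower, and 7 of the 68 genes were past adjusted p, beside 11% over all genes. Serum against no serum gave 0 calls and 0 past adjusted p among these 68 genes.

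Of the 4 leukocyte markers above background on at least 1 array, 2 were past adjusted p and higher with cordycepin, *Cd68* by 3.02 and *Itgam* by 0.62 on the log2 scale, while *Ptprc* was above background on 3 arrays and was not tested. The summed level of these 4 markers, relative to the 75th percentile, was 31.1 to 39.1 with cordycepin, 17.6 to 20.2 with serum and 16.2 to 21.3 without serum, and its part in the results above was not tested.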

How the data were processed

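The deposited files hold, per the file headers, intensity per spot on a linear scale, which the authors extracted with Feature Extraction 10.7.3.1. This software subtracts a background and marks outlier spots and spots well above background. Probe positions refer to build mm9. RNA was labelled with Cy3 by amplification, per the labels. Whether the arrays of a group came from separate cultures is not stated, so p-values measure the spread between arrays. All 8 arrays lay on 1 slide read on 1 day.

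From these files the processed signal was put on the log2 scale, outlier and control spots were left out, spots of a probe were averaged, and the 75th percentile over the 55681 probes was subtracted from each array. Changes common to most RNAs are removed by this step. Probes entered the test if all arrays of at least 1 group had them well above background, and 30859 did. The test was limma 3.58.1 (R 4.3.3) on all 8 arrays, fitting a mean for each group without covariates, with two-sided p-values and Benjamini-Hochberg adjustment over these probes. A gene was read on its brightest tested probe. Precision is limited by the 2 or 3 arrays per group. The steps were tested on simulated data, with planted changes larger than that of any member and noise independent between probes. Smaller changes and genes that vary together between arrays were thus not covered.

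The members and the other gene lists were chosen with earlier results of these data known. Values in every array are given for each member called or past adjusted p, for the brightest member of each role with none, and for genes picked out after their values were seen. Promoter sequences are those of RefSeq for GRCm38.p6, and 54 of the 55 probes had an accession that RefSeq lists, under the same symbol. One result on a marker gene is not reported here. The arrays were not treated as paired by their replicate numbers.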

Additional observations from a re-analysis of the deposited data

How the results depend on the processing

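The alternatives were another background correction, quantile normalisation, centring on spike-in probes, no filter and a stricter filter on dim probes, the array row or the replicate number as a block, the mean over the probes of a gene, a fit to the compared arrays only, an unadjusted threshold, and leaving out each array. Of 210 recomputed counts and medians, 198 stayed close to their value. A median was taken as close if it moved by less than 0.23, the SD of the members' median between arrays of a group. That is wider than each main median in size, and most counts were 0, so this tally is a weak check. Centring on spike-in probes moved the median of all genes to -0.29 in the serum comparison and -0.32 between cordycepin plus serum and no serum, and the members with it, to -0.38 and -0.46. It left 0 members called higher or past adjusted p with cordycepin against serum, and 0 past adjusted p against no serum, where *Ccnb2* was at 1.09 against serum and 0.57 against no serum, and *E2f2* and *Cdt1* were at -1.1 and -0.95 against no serum. The number of members past adjusted p with cordycepin against serum was 2 with normexp, with quantile normalisation and with the replicate block, the second being *Mki67* (adjusted p = 0.0431 and 0.0486) or, after quantile normalisation, *Cdc6* on its brighter probe (-0.54, adjusted p = 0.0202). Against no serum the number was 1 without a filter and 4 with normexp, where *Mki67* passed at -0.63 (adjusted p = 0.0321), as it did with the replicate block at -0.72 (adjusted p = 0.0291). Leaving out arrays, the number past adjusted p ran from 1 to 2 against serum and from 1 to 3 against no serum. No change of a named gene that passed adjusted p in either setting reversed its sign. In 30 other cases a change not past adjusted p in either setting did, among them *Ccnd3*, *Pcna* and *Cdk4* against no serum under spike-in centring (-0.1, -0.14 and -0.33).

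*Ccnb2* kept its direction in all 16 alternatives, at 1.06 to 1.27, and was past adjusted p in 15. *E2f2* and *Cdt1* were past it against no serum in 10 and 4. The replicate block left *E2f2* at -0.78 (adjusted p = 0.0579) and *Cdt1* at -0.58 (adjusted p = 0.0646). Deviations of equally numbered arrays from their group means correlated over probes at 0, -0.17 and 0.14 between the cordycepin and serum groups, -0.04 and 0.23 between serum and no serum, and -0.09 and 0 between cordycepin and no serum. Not every pair was over 0.1, so the arrays were not treated as paired, and whether the numbers mark a shared day is unknown. These correlations are over all tested probes. The mitosis members did deviate in the same direction in equally numbered cordycepin and serum arrays, so a pairing is not excluded for them. The causes were not tested. Dim probes are measured less well, and 3 members could not be measured at all.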
